A study of Mus musculus with 12 samples.

Results

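Genes that differed with ligands of the aryl hydrocarbon receptor (AhR) were sought in a pooled comparison. The 8 arrays of ligand-treated hosts, 4 with TCDD and 4 with Cl-BBQ, were set against the 4 arrays of vehicle-treated hosts. These were all 12 arrays of the series. Each gene was represented by 1 probe set, which gave 19938 genes, and the means of both ligand groups counted equally. The RNA came from CD4+ T cells of C57Bl/6 donors. Donor spleen cells were labelled with CFSE, a dye diluted at each division, and injected into B6D2F1 hosts, a transfer that starts a graft-versus-host response. The CD4+ cells analysed had divided at least 2 times and were recovered from spleen and lymph node on day 2 (48 hr) with magnetic beads and flow sorting. Vehicle hosts were dosed on days 0 and 1, TCDD hosts received 15 µg/kg intraperitoneally on day 0, and Cl-BBQ hosts received 2 mg/kg on days 0 and 1. All groups thus shared the transfer and the alloresponse, TCDD and vehicle hosts differed in the dosing days, and the ligands were not given at a matched dose. The mice were 10 to 12 weeks old, with 4 per group, and nothing in the labels says whether an array held 1 mouse or a pool.

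AhR is a transcription factor that rests in the cytoplasm with chaperones, enters the nucleus when a ligand binds, pairs with ARNT and binds dioxin response elements in DNA. Its textbook targets are xenobiotic-metabolising enzymes such as CYP1A1 and CYP1B1 and its own feedback inhibitors AHRR and TIPARP. In T cells, AhR ligands are known for shaping regulatory and effector differentiation. TCDD is a dioxin that is hardly metabolised, and Cl-BBQ is a second AhR ligand, used here under the code name of the labels.

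Array medians ran from 7.11 to 7.24 on the log2 scale and pairs of arrays correlated at 0.988 to 0.995 over probe sets, which are not independent. The labelled cell type matched its markers: the 13 measured CD4 T cell identity genes had a median vehicle level of 12.44, with Cd4 at 12.44 ± 0.06 and Cd3e at 12.92 ± 0.02, and 0 of them were called. The median vehicle level was 6.56 over the B and plasma cell markers, 6.61 over the myeloid and dendritic cell markers and 6.49 over the natural killer (NK) cell markers, against 7.38 over all genes. Defining genes of these cells, Cd79a (6.52 ± 0.13), Lyz2 (5.89 ± 0.12) and Ncr1 (5.70 ± 0.06), were not called, whereas Cd22 and Bank1 of the B cell list, Cd74 of the myeloid list and Gzma and Eomes of the NK cell list were, as described below. Of the CD8 chains, Cd8a varied from 6.96 to 8.47 in vehicle and Cd8b1 was brighter at 9.92 ± 0.16, and neither was called. All levels here are log2 intensities, group values are mean ± SD of 4 arrays, a fold is 2 raised to the difference of log2 means, and genes with a limma p under 0.05 after Benjamini-Hochberg adjustment are termed called. Because RNA of a sorted cell population was measured, a change in the share of cells that express a gene and a change in RNA per cell cannot be told apart.

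The pooled comparison held more and larger increases than decreases. It averages the ligands and does not test whether each of them changed a gene. Against vehicle, 247 genes were called with TCDD and 39 with Cl-BBQ. Of all genes, 246 were called (1.23%), 164 higher (0.823%) and 82 lower (0.411%) with the ligands, and 22 rose at least 2-fold whereas 1 fell as far. The largest increases were in Ccr9, Cyp1b1, Gpr15, Gzma and Myo1f, the largest decreases in A530021J07Rik, AB124611, Ctnnal1 and Sema4a. The median size was 1.40-fold among genes that rose and 1.36-fold among genes that fell, and the median difference over all genes was 0.01. All 8 ligand arrays lay above all 4 vehicle arrays for 184 genes (0.923%) and below for 148 (0.742%), and of the called genes 173 were separated in this way and 73 overlapped. The counts moved with the processing: 143 genes were called after centring each array on its median (106 higher, 37 lower), and 395 (226 higher, 169 lower) with the replicate number as a block. Deviations from the group means of same-numbered vehicle and ligand arrays correlated at -0.13 to 0.18. Those of same-numbered TCDD and Cl-BBQ arrays correlated at 0.113 to 0.606, whereas the main fit treats the 8 ligand arrays as independent. The counts also leaned on single arrays: 154 genes were called without vehicle replicate 4, 105 were higher without vehicle replicate 3, and 40 were lower without vehicle replicate 1 or replicate 4 and 46 without TCDD replicate 3. A core of 125 genes, 95 higher and 30 lower, was called with all arrays and in each of the 12 fits without 1 array. Among genes described below, Ccr2, Id2, Lta, Nfil3, Socs3, Swap70, Tiam1, Plpp1, Eif1ax, Ostf1, Gcnt1, Irf8 and Pdcd1lg2 were called but lay outside it. Other lost calls are given with the genes.

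**Figure D1:**
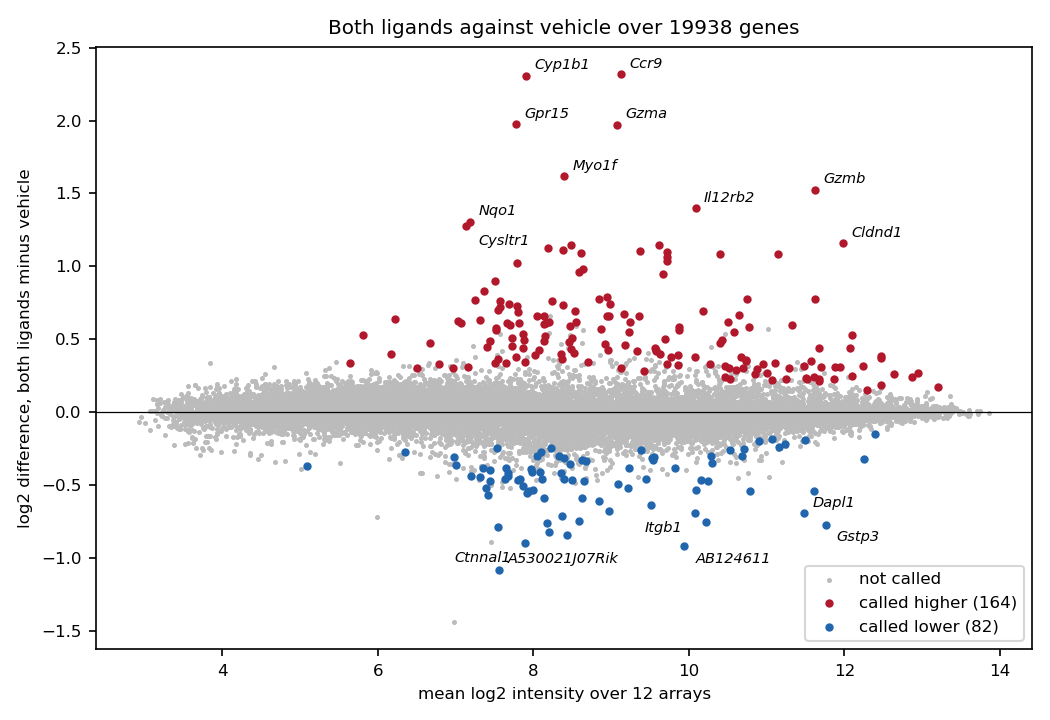
Each point is a gene, with its mean log2 intensity over 12 arrays on the x axis and the log2 difference of the equally weighted ligand means minus the vehicle mean on the y axis; red points were called higher (164), blue points lower (82) and grey points were not called. The called increases reach 2.32 for Ccr9, whereas the called decreases end at -1.08 for A530021J07Rik.

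Of the AhR battery, a list of known targets with the receptor and its partner, 6 of 14 measured genes rose and 0 fell. That is 42.9% called, against 1.23% of all genes. The median difference of the list was 0.27 against 0.01 over all genes. Cyp1b1, a cytochrome P450, read 6.25, 6.57, 6.31 and 6.32 on the vehicle arrays, 9.67, 9.92, 9.91 and 9.92 on the TCDD arrays, and 8.24, 7.90, 5.93 and 7.89 on the Cl-BBQ arrays. All TCDD arrays were high and close together, 3 Cl-BBQ arrays were intermediate, and Cl-BBQ replicate 3 lay below every vehicle array, so the groups overlapped. The pooled change of Cyp1b1 was 4.95-fold (log2 2.31, 95% interval 1.69 to 2.92, adjusted p = 0.00053). Nqo1, a quinone reductase, read 6.25, 6.41, 6.10 and 6.52 with vehicle, 7.85, 8.27, 8.02 and 8.27 with TCDD, and 7.31, 7.67, 6.59 and 7.03 with Cl-BBQ. Its groups did not overlap, although Cl-BBQ replicate 3 came within 0.1 of the highest vehicle array, and it rose 2.47-fold (adjusted p = 0.000272). Ahrr, the AhR repressor, was dim at 5.80 ± 0.06 with vehicle and rose 1.55-fold without overlap (adjusted p = 0.00053), to 6.69 ± 0.19 with TCDD and 6.19 ± 0.17 with Cl-BBQ.

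Of the smaller increases of the battery, those of Tiparp and Cyp1a1 were carried mainly by the TCDD arrays. Tiparp, an ADP-ribosyltransferase that represses AhR, read 9.25 to 9.47 with vehicle, 10.11 to 10.31 with TCDD and 9.25 to 9.73 with Cl-BBQ, and its pooled change was 1.42-fold (adjusted p = 0.00307). Cyp1a1, the classic AhR-induced cytochrome P450, was dim at 6.36 ± 0.11, 7.09 ± 0.08 and 6.58 ± 0.22 in the same order and rose 1.39-fold (adjusted p = 0.00493). For both, Cl-BBQ arrays overlapped vehicle arrays. Lgals3, a galectin, rose 1.42-fold with overlap from 8.17 ± 0.12 (adjusted p = 0.00418). The other 8 members were not called; Ahr itself stood at 8.56 ± 0.12 with vehicle and differed by -0.11 (interval -0.27 to 0.04), and its partner Arnt by 0.08 (interval -0.05 to 0.21). Where the 8 ligand arrays were fitted as 1 group, so that the difference between ligands entered the spread, Cyp1b1, Tiparp and Cyp1a1 were no longer called (adjusted p = 0.0671, 0.196 and 0.123).

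Promoter letters of genes that rose are shown because AhR binds a known DNA element, whose core, GCGTG, was searched on both strands in the RefSeq promoters of build GRCm38.p6 (250 bases before to 50 after each start). A promoter was found for 132 of the 164 genes that rose, 62 of the 82 that fell and 15563 of all. The core was present in 46.2% of the promoters of genes that rose, 54.8% of those of genes that fell and 44.4% of all, so the genes that rose held it about as often as genes at large. The longer form TNGCGTG, which contains the core, was present in 11.4%, 4.84% and 7.38%, the last being the share over all promoters. These are descriptions without a test. Below are the 250 bases before the start of Cyp1b1 (chr17:79715062-79715311, minus strand), Ahrr (chr13:74292332-74292581, minus strand), Il12rb2 (chr6:67376189-67376438, minus strand) and Ccr9 (chr9:123766961-123767210, plus strand), 5′ to 3′, with each core match in capitals (GCGTG, or CACGC where it lies on the other strand). Cyp1b1 and Ccr9 had the largest increases; Ahrr and Il12rb2 were chosen after their matches were seen.
Cyp1b1: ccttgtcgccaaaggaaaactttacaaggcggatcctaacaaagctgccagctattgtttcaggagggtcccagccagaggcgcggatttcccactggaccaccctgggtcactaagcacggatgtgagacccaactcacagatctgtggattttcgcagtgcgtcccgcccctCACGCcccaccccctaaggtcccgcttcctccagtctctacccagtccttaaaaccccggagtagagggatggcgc
Ahrr: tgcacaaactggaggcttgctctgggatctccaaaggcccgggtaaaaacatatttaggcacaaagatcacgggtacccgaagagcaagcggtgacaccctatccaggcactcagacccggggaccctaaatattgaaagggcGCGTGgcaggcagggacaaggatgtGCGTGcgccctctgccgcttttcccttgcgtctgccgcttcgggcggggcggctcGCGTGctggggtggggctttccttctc
Il12rb2: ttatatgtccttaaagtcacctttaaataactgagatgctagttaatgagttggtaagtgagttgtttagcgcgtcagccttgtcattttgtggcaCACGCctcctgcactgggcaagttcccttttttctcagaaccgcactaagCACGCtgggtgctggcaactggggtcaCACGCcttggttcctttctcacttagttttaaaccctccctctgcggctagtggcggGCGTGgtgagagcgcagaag
Ccr9: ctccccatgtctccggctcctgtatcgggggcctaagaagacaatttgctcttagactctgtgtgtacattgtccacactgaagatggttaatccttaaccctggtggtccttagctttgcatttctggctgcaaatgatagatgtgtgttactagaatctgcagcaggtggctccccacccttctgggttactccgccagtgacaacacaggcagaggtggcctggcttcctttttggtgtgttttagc
The stretch before Cyp1b1 held 1 match, that before Ahrr 3, that before Il12rb2 4 and that before Ccr9 0; the promoters of Gpr15, Gzma, Gzmb, Nqo1 and Myo1f also had 0 in 300 bases. A missing match says only that these letters are not in this window.

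Receptors that direct T cells to tissues were among the increases. Of 19 measured homing genes, 7 rose and 1 fell (42.1% called, against 1.23% of all genes), with a median difference of 0.10. Ccr9, the receptor for the gut chemokine CCL25, read 7.97, 8.20, 7.07 and 7.07 with vehicle, 9.78, 10.25, 10.56 and 10.76 with TCDD, and 8.61, 10.01, 8.97 and 10.23 with Cl-BBQ. Every ligand array exceeded every vehicle array, but the Cl-BBQ arrays spread over more than 1 log2 unit, and the pooled increase was 4.98-fold (log2 2.32, interval 1.70 to 2.93, adjusted p = 0.00053), the largest of all called genes. Gpr15, a receptor for homing to the colon, read 6.31, 6.59, 6.21 and 6.75 with vehicle, 8.30, 9.31, 9.05 and 9.18 with TCDD, and 7.81, 8.52, 7.20 and 8.16 with Cl-BBQ. It rose 3.94-fold without overlap (adjusted p = 0.000187), with Cl-BBQ replicate 3 again the lowest ligand array.

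Chemokine receptors for inflamed tissue and skin rose less. Ccr4, a receptor of skin-homing and type 2 T cells, went from 8.86 ± 0.33 with vehicle to 10.36 ± 0.27 with TCDD and 9.65 ± 0.31 with Cl-BBQ (2.22-fold, adjusted p = 0.000713). Cxcr6, a receptor of tissue-resident T cells, went from 8.63 ± 0.32 to 9.96 ± 0.41 and 9.51 ± 0.24 (2.15-fold, adjusted p = 0.0017). Both were separated on all arrays. Ccr2, a receptor for monocyte chemoattractants, rose 2.03-fold with overlap from 7.12 ± 0.30 (adjusted p = 0.013). Itgae, the integrin chain CD103 that binds epithelial E-cadherin, rose 1.49-fold without overlap, from 7.14 ± 0.16 to 7.97 ± 0.41 and 7.45 ± 0.08, but its call was lost in 9 of the 12 fits without 1 array, with adjusted p up to 0.166. Selplg, the P-selectin ligand, rose 1.29-fold from 12.23 ± 0.15. Itgb7, the partner of CD103 and of the gut integrin chain α4, was not called (difference 0.32, interval 0.13 to 0.50, adjusted p = 0.121), and Ccr7, a lymph node homing receptor, differed by -0.01 (interval -0.12 to 0.09).

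**Figure D2:**
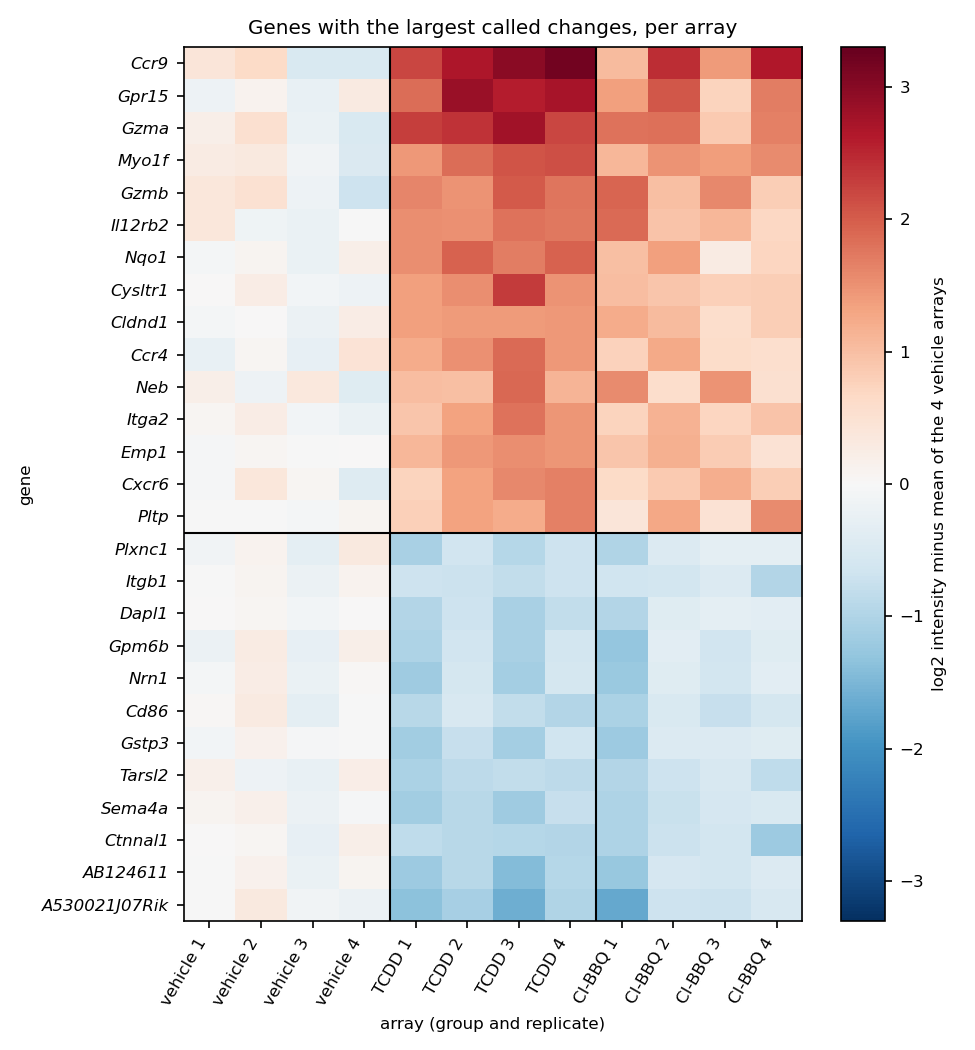
Rows are the 15 genes with the largest called increases and the 12 with the largest called decreases among genes whose ligand and vehicle arrays did not overlap; columns are the 12 arrays. Colour gives the log2 intensity minus the mean of the 4 vehicle arrays, red above and blue below it; the TCDD columns are the deepest red, and the blue rows are of more even depth in both ligand groups, with Cl-BBQ replicate 1 deep for most of the blue rows.

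Cytotoxic effector genes rose, but only in some members of the family. Of 20 measured granule genes 3 rose and 0 fell (15.0% called, against 1.23% of all genes), and the list's median difference was 0.04. Gzma, the protease granzyme A, read 7.96, 8.30, 7.54 and 7.26 with vehicle, 10.04, 10.16, 10.53 and 9.97 with TCDD, and 9.56, 9.58, 8.63 and 9.42 with Cl-BBQ, a separation on all arrays with a 3.92-fold rise (log2 1.97, interval 1.57 to 2.37, adjusted p = 9.33e-05). Gzmb, granzyme B, was bright already with vehicle at 10.98, 11.11, 10.44 and 9.92, and read 12.22, 12.08, 12.65 and 12.37 with TCDD and 12.53, 11.61, 12.20 and 11.43 with Cl-BBQ. The groups did not overlap, the rise was 2.88-fold (adjusted p = 0.00126), and vehicle replicate 4 was the lowest array for both granzymes. Prf1, the pore-forming protein perforin, rose 1.35-fold from 7.58 ± 0.12, with TCDD arrays at 7.88 to 8.12 and Cl-BBQ arrays at 7.73 to 8.20; its call was lost without vehicle replicate 3 or vehicle replicate 4 (adjusted p up to 0.0762). Gzmc (6.85 ± 0.23 with vehicle, difference 0.11) and Gzmk (6.46 ± 0.14, difference 0.07) were dim and not called. Granzymes are a multigene family, and cross-hybridisation between its members was not tested. Gzma is also 1 of the 8 NK cell markers; over that list the mean level per array ran from 6.23 to 6.59 with vehicle, 6.46 to 6.59 with TCDD and 6.36 to 6.56 with Cl-BBQ, and Klrb1c, which encodes NK1.1, was at 7.15 ± 0.34 with vehicle and not called (difference -0.36).

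Genes of the type 1 helper programme moved both ways, with 6 of 19 measured members higher and 2 lower (42.1% called, against 1.23% of all genes). Il12rb2, the signalling subunit of the interleukin-12 receptor, read 9.54, 9.01, 8.93 and 9.15 with vehicle, 10.69, 10.67, 10.95 and 10.89 with TCDD, and 11.01, 10.11, 10.25 and 9.85 with Cl-BBQ. No array overlapped, Cl-BBQ replicate 1 was the highest of all, and the rise was 2.63-fold (log2 1.40, interval 1.05 to 1.74, adjusted p = 0.000306). Il18rap, an interleukin-18 receptor chain, rose 1.45-fold from 7.51 ± 0.21 (adjusted p = 0.0159), a call lost without vehicle replicate 2, replicate 3 or replicate 4 (adjusted p up to 0.0935). Id2, Ifngr1 and Runx3 rose 1.36-fold, 1.25-fold and 1.26-fold. The T-box factor Eomes fell 1.48-fold without overlap, from 7.80 ± 0.28 to 7.15 ± 0.21 and 7.31 ± 0.16 (adjusted p = 0.017; up to 0.0936 without vehicle replicate 1 or replicate 2), and the cytokine gene Lta fell 1.33-fold. The master factor Tbx21 (difference 0.07, interval -0.14 to 0.27) and the interferon-γ gene Ifng (difference -0.07, interval -0.45 to 0.31) were not called.

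Of 25 type 1 regulatory (Tr1) and co-inhibitory receptor genes, 6 rose and 0 fell (24.0% called, against 1.23% of all genes), with a median difference of 0.13. Itga2, the integrin chain CD49b, read 7.50, 7.69, 7.35 and 7.23 with vehicle, 8.35, 8.78, 9.24 and 8.89 with TCDD, and 8.18, 8.58, 8.16 and 8.38 with Cl-BBQ, and rose 2.18-fold without overlap (adjusted p = 0.000336). Prdm1, the transcription factor Blimp-1, rose 1.95-fold from 7.95 ± 0.20 to 9.17 ± 0.24 and 8.65 ± 0.44 (adjusted p = 0.00289), with Cl-BBQ replicate 4 at 8.06 inside the vehicle range. Havcr2, the inhibitory receptor TIM-3, read 8.81 to 9.16 with vehicle, 10.38 to 10.78 with TCDD and 10.54, 9.70, 10.00 and 8.46 with Cl-BBQ. Cl-BBQ replicate 4 thus lay below every vehicle array, and the 2.14-fold pooled change (adjusted p = 0.0412) was lost in 10 of the 12 fits without 1 array (adjusted p up to 0.174). Il10, the suppressive cytokine of Tr1 cells, behaved alike on that array: it read 8.24 to 8.81 with vehicle, 9.26 to 9.80 with TCDD and 9.17, 9.11, 9.13 and 8.15 with Cl-BBQ. Its 1.67-fold change (adjusted p = 0.0443) was lost in 8 of those fits (adjusted p up to 0.214). Ctla4, an inhibitory receptor bright at 12.47 ± 0.11, rose 1.20-fold and Nfil3, a transcription factor, 1.23-fold; Lag3, another inhibitory receptor, differed by 0.09 (interval -0.15 to 0.32).

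Of the lists of other helper fates, 27.8% of the regulatory T cell genes and 16.7% of the Th2 genes were called, against 1.23% of all genes. Among 18 regulatory T cell (Treg) genes 2 rose and 3 fell: Tgfb3, a transforming growth factor β ligand, rose 1.86-fold without overlap from 6.91 ± 0.07 to 8.04 ± 0.24 and 7.59 ± 0.28 (adjusted p = 0.000459), Itgae rose as above, Cd83 and Swap70 fell 1.37-fold and 1.23-fold, and Nrp1, neuropilin-1, fell 1.47-fold at an adjusted p of 0.0499 that was lost in 11 of the 12 fits without 1 array (up to 0.219). Foxp3, the defining factor, stood at 8.05 ± 0.12 with vehicle and differed by -0.05 (interval -0.21 to 0.12). In the Th2 list 2 of 12 rose, Ccr4 and Gata3 (1.25-fold from 9.65 ± 0.08, adjusted p = 0.029, lost in 8 of the 12 fits). The 8 measured Th17 and Th22 genes and the 12 Tfh genes had 0 calls, with 1.23% of all genes called; Il17a differed by 0.09 (interval -0.03 to 0.21).

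Interleukin-2 signalling genes split: 3 of 17 rose and 2 fell (29.4% called, against 1.23% of all genes). Il2 itself fell 1.36-fold without overlap, from 7.44, 7.44, 7.42 and 7.68 with vehicle to 6.80, 6.89, 7.15 and 7.22 with TCDD and 6.79, 7.19, 7.24 and 7.18 with Cl-BBQ (adjusted p = 0.0307). That call was lost without TCDD replicate 2 or any 1 of the 4 vehicle arrays (adjusted p up to 0.161). Lif, a cytokine of the interleukin-6 family, fell 1.46-fold from 11.15 ± 0.18 to 10.59 ± 0.21 and 10.61 ± 0.27 (adjusted p = 0.0186; up to 0.111 without TCDD replicate 3, vehicle replicate 1 or vehicle replicate 4). The feedback inhibitor Socs3 and the kinase Pim1 rose 1.32-fold and 1.34-fold. Il7r, the interleukin-7 receptor chain, rose 1.58-fold with overlap from 10.20 ± 0.32 to 10.85 ± 0.36 and 10.88 ± 0.24 (adjusted p = 0.0386, lost in 8 of the 12 fits without 1 array, up to 0.207). Of 22 further cytokine and chemokine ligands, Tgfb3 rose and Tnfsf4, the OX40 ligand, fell 1.64-fold from 8.84 ± 0.30 (adjusted p = 0.044, also lost in 8 of those fits). In that list 9.09% were called, against 1.23% of all genes.

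Of 23 integrin, semaphorin and junction genes 4 rose and 5 fell (39.1% called, against 1.23% of all genes). This list, like the others, was chosen with earlier results of these data known, so its count is only a description. Cldnd1, a claudin-domain membrane protein, had the smallest adjusted p of the comparison (3.18e-05) and read 11.15, 11.21, 11.01 and 11.46 with vehicle, 12.55, 12.63, 12.62 and 12.64 with TCDD, and 12.43, 12.26, 11.80 and 12.01 with Cl-BBQ. The TCDD arrays were nearly equal, Cl-BBQ arrays lay between, and the rise was 2.23-fold. Emp1, a tetraspan epithelial membrane protein, was even across vehicle arrays (7.64 ± 0.04) and rose 2.16-fold to 9.02 ± 0.20 and 8.49 ± 0.29. Itgb3, the integrin β3 chain, rose 1.31-fold (adjusted p = 0.0255). Myo1f, a class I myosin of leukocytes that none of the lists holds, read 7.58, 7.66, 7.21 and 6.83 with vehicle, 8.76, 9.16, 9.40 and 9.44 with TCDD, and 8.41, 8.79, 8.71 and 8.87 with Cl-BBQ. It rose 3.08-fold without overlap (adjusted p = 9.33e-05), with Cl-BBQ arrays closer together than the vehicle arrays.

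For the adhesion genes that fell, the arrays of both ligands lay below those of vehicle. Ctnnal1, the catenin-like protein α-catulin, read 8.49, 8.55, 8.23 and 8.70 with vehicle, 7.66, 7.57, 7.56 and 7.53 with TCDD, and 7.48, 7.77, 7.88 and 7.29 with Cl-BBQ, a 1.87-fold fall without overlap (log2 -0.90, interval -1.12 to -0.68, adjusted p = 0.000272). Itgb1, the integrin β1 chain, read 10.52, 10.64, 10.34 and 10.67, then 9.85, 9.84, 9.74 and 9.85, then 9.89, 9.92, 10.10 and 9.59 in the same order and fell 1.62-fold (adjusted p = 0.000404). Sema4a, a semaphorin with immune roles, fell 1.80-fold from 8.80 to 9.16 with vehicle to 7.83 to 8.24 with TCDD and 7.98 to 8.50 with Cl-BBQ (adjusted p = 0.000459). Plxnc1, a semaphorin receptor, fell 1.60-fold (adjusted p up to 0.102 without vehicle replicate 2 or replicate 4). Nrn1, neuritin, fell 1.68-fold from 10.73 ± 0.19 (adjusted p up to 0.0916 without TCDD replicate 3 or vehicle replicate 1, replicate 2 or replicate 4), and the connexin gene Gjb2 1.53-fold.

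Lipid mediator genes held 1 large increase, and 11.8% of the 17 measured were called, against 1.23% of all genes. Cysltr1, the receptor for cysteinyl leukotrienes, read 6.29, 6.52, 6.19 and 6.11 with vehicle, 7.64, 7.82, 8.59 and 7.77 with TCDD, and 7.30, 7.18, 7.06 and 7.08 with Cl-BBQ, and rose 2.42-fold without overlap (adjusted p = 0.000187). Of the other 16 prostaglandin and leukotriene genes, Ptger4, a prostaglandin E receptor, fell 1.25-fold without overlap (adjusted p = 0.045, lost in 9 of the 12 fits without 1 array), and 15 were not called. Pltp, a phospholipid transfer protein, rose 2.13-fold from 7.89 ± 0.07 to 9.14 ± 0.36 and 8.82 ± 0.58, and Neb, the muscle thin-filament protein nebulin, 2.21-fold from 7.73 ± 0.34 to 8.98 ± 0.42 and 8.76 ± 0.56 (adjusted p = 0.0105; 0.0714 without vehicle replicate 4).

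Calcium-binding S100 proteins and galectins rose in 5 of 16 members and fell in 0 (31.25% called, against 1.23% of all genes), with a median difference of 0.10. S100a6, the largest, read 10.46, 11.08, 10.13 and 10.05 with vehicle, 11.15, 11.70, 11.99 and 11.94 with TCDD, and 10.86, 11.60, 11.53 and 11.32 with Cl-BBQ. Cl-BBQ replicate 1 lay below vehicle replicate 2, so the groups overlapped in spite of a 2.12-fold rise (adjusted p = 0.00576). S100a11 rose 1.44-fold without overlap from 11.75 ± 0.11, S100a10 1.31-fold and Lgals1, galectin-1, 1.18-fold from 12.71 ± 0.03. In the interferon response list 3 of 20 rose: the antiviral membrane proteins Ifitm3 (2.12-fold from 9.68 ± 0.48, adjusted p = 0.00175) and Ifitm2 (1.42-fold, adjusted p = 0.00272), both without overlap, and Gbp7, a guanylate-binding protein, 1.22-fold at an adjusted p of 0.0443 that was lost in 9 of the 12 fits without 1 array. The interferon response list thus had 15.0% called, against 1.23% of all genes. The Ifitm genes are closely related copies, and shared signal between their probe sets was not tested.

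Genes that fell were spread over many functions. A530021J07Rik, a poorly characterised transcript, read 8.26, 8.61, 8.17 and 8.09 with vehicle, 6.93, 7.19, 6.68 and 7.29 with TCDD, and 6.59, 7.59, 7.58 and 7.77 with Cl-BBQ. Its 2.12-fold fall (adjusted p = 0.00382) was the deepest call, without overlap and with Cl-BBQ replicate 1 lowest. AB124611, another transcript of little known function, fell 1.89-fold from 10.55 ± 0.17 to 9.42 ± 0.24 and 9.83 ± 0.36. Tarsl2, a threonyl-tRNA synthetase-like enzyme, fell 1.77-fold from 8.76 ± 0.24 to 7.86 ± 0.10 and 8.01 ± 0.19 (adjusted p = 0.000404). The other 19 amino acid transporters and tRNA synthetases were uncalled, so 5.0% of that list was called, against 1.23% of all genes. Gstp3, a glutathione transferase with close copies, fell 1.71-fold from 12.28 ± 0.10 to 11.35 ± 0.25 and 11.66 ± 0.38. The other 15 NRF2 and redox genes were uncalled, so 6.25% of that list was called, against 1.23% of all genes. At that share, most members of lists of this size would be uncalled in any case. Gpm6b, a membrane proteolipid, fell 1.68-fold (adjusted p up to 0.133 without TCDD replicate 3, vehicle replicate 2 or vehicle replicate 4). Among 16 naive and quiescence genes, Dapl1 fell 1.62-fold without overlap from 11.94 ± 0.07 and Igfbp4, an insulin-like growth factor binding protein, 1.38-fold, whereas Il7r and the PDZ-LIM protein Pdlim4 (1.98-fold from 7.99 ± 0.36, adjusted p = 0.00161) rose. In that list 25.0% were called, against 1.23% of all genes.

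Some genes best known from B cells and antigen-presenting cells were among those that fell, namely 2 of 14 B and plasma cell markers and 1 of 20 myeloid and dendritic cell markers, with list medians of 0.01 and -0.0022. These are 14.3% and 5.0% of the lists, against 1.23% of all genes called. Cd86, a co-stimulatory ligand in no list, read 8.71, 8.98, 8.36 and 8.66 with vehicle, 7.77, 8.15, 7.87 and 7.72 with TCDD, and 7.64, 8.18, 7.91 and 8.10 with Cl-BBQ, and fell 1.69-fold without overlap (adjusted p = 0.00256). Cd22, a B cell inhibitory receptor, fell 1.73-fold from 8.07 ± 0.40 to 7.11 ± 0.14 and 7.45 ± 0.22 (adjusted p = 0.00576), Bank1, a B cell scaffold, 1.36-fold, and Cd74, the invariant chain, 1.29-fold. Bank1 lost its call in 4 of the 12 fits without 1 array and Cd74 in 7 (adjusted p up to 0.139 and 0.170). The other 12 of 14 B and plasma cell markers and 19 of 20 myeloid and dendritic cell markers were not called. The mean level per array over the B cell list ran from 6.50 to 6.63 with vehicle, 6.42 to 6.50 with TCDD and 6.47 to 6.54 with Cl-BBQ; over the myeloid list it ran from 6.85 to 6.99, 6.86 to 6.94 and 6.88 to 6.96. The part of other cells in these decreases was not tested.

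In 8 lists of programmes of dividing T cells 0 members were called, which at 1.23% of all genes called is near the background for lists of this size. These were proliferation (27 measured, median difference -0.05), T cell receptor signalling (21, 0.01), glycolysis (15, 0.03), cholesterol synthesis (14, -0.02), the mitochondrial respiratory chain (19, -0.03), endoplasmic reticulum stress (20, 0.04), apoptosis (15, 0.01) and early response genes (20, -0.02). Mki67, a marker of cycling cells, stood at 11.80 ± 0.19 with vehicle, 11.78 with TCDD and 11.81 with Cl-BBQ. An uncalled list does not show equality: at an unadjusted p under 0.05, 9.93% of all genes passed. Over the 26 gene lists together, 63 of 439 measured genes were called, and 180 called genes were in no gene or marker list. Because the lists were chosen with earlier results of these data known, the shares called in them are descriptions.

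**Figure D3:**
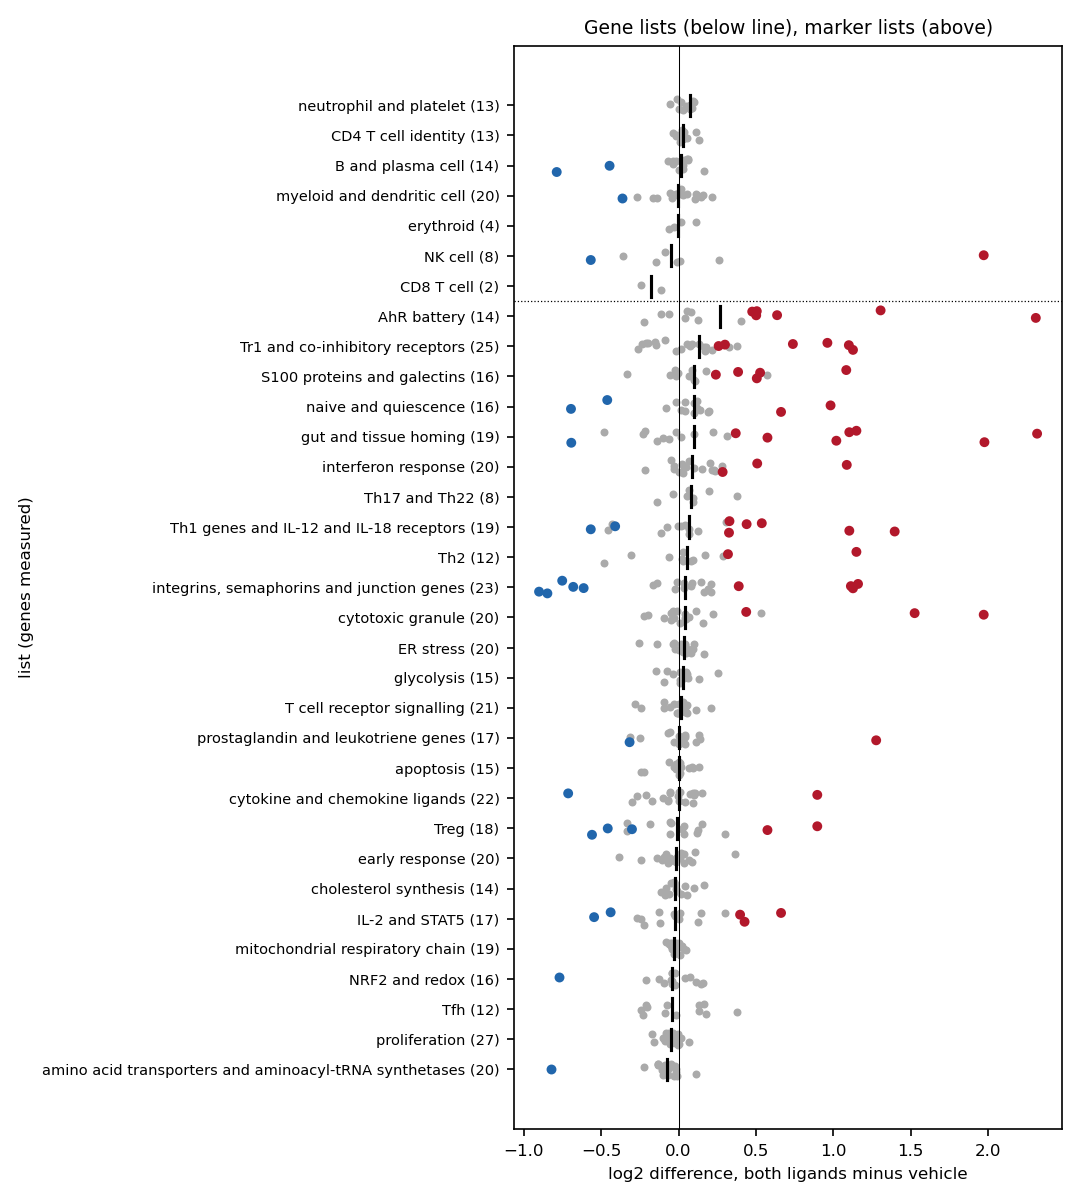
Each point is a measured gene, placed by its log2 difference of both ligands minus vehicle on the x axis within its list on the y axis; red and blue points were called higher and lower, grey points were not called, and the black tick is the median of the list. The tick stays between -0.18 and 0.27 in every list while single members reach 2.32. How far called members lie from 0 differs between lists. The only call of the myeloid and dendritic cell list is at -0.36.

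The difference between the ligands is orthogonal to the pooled change and is a difference of ligand arrays alone, with vehicle arrays entering only the spread. It showed how evenly the ligands shared each gene. In TCDD minus Cl-BBQ 3 genes were called (0.015%), all among the genes that rose: Cyp1b1 (log2 2.37, interval 1.65 to 3.08, adjusted p = 0.0356), Kit (0.68, 0.46 to 0.89, adjusted p = 0.039) and Tiparp (0.65, 0.45 to 0.84, adjusted p = 0.0356). Kit, a receptor tyrosine kinase, read 6.61 to 6.79 with vehicle, 7.63 to 8.03 with TCDD and 6.93 to 7.34 with Cl-BBQ, 3 levels without overlap. Same-numbered TCDD and Cl-BBQ arrays deviated together, and with the replicate number as a block 5 genes were called: these (adjusted p = 0.0117, 0.0270 and 0.0307), Nqo1 (0.0176) and Gpr15 (0.0348). Without a block the number called fell to 0 without any 1 of the TCDD or vehicle arrays or Cl-BBQ replicate 4, was 1 without Cl-BBQ replicate 3, and was 7 without Cl-BBQ replicate 1.

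Over the whole set, the genes that rose and those that fell differed in how the ligands compared. The TCDD mean was farther from vehicle than the Cl-BBQ mean in 160 of 164 genes that rose and 69 of 82 that fell, and the median TCDD minus Cl-BBQ difference was 0.19 and -0.10, against 0.00 over all genes. At an unadjusted p under 0.05 the ligands differed for 80 of the genes that rose (48.8%) and 13 of those that fell (15.9%), against 2.99% of all genes. Both comparisons use the same spread per gene, and called genes were partly chosen by a small spread. Their shares can thus exceed that of all genes without a difference between the ligands. Of the 6 called genes with the smallest difference between the ligands, 5 had fallen. Usp6nl, a GTPase-activating protein for endosomal Rab proteins, fell 1.39-fold with each ligand (TCDD minus Cl-BBQ 0.00, interval -0.19 to 0.18). The other 5 were Tiam1, a Rac exchange factor (1.32-fold and 1.31-fold lower with TCDD and Cl-BBQ), Ticam2, a Toll-like receptor adaptor (1.34-fold and 1.33-fold lower), Plpp1, a lipid phosphatase (1.50-fold and 1.51-fold lower), Eif1ax, a translation initiation factor (1.11-fold lower with each) and Ostf1 (1.18-fold higher with each). Beyond these 6, the interval was -0.26 to 0.15 for Itgb1, -0.28 to 0.22 for Ctnnal1 and -0.29 to 0.25 for Lif, so differences of those sizes remain possible. Among larger increases, Neb (0.22, interval -0.31 to 0.74), Gzmb (0.39, interval -0.13 to 0.91) and Pltp (0.32, interval -0.14 to 0.79) had intervals that spanned 0.

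**Figure D4:**
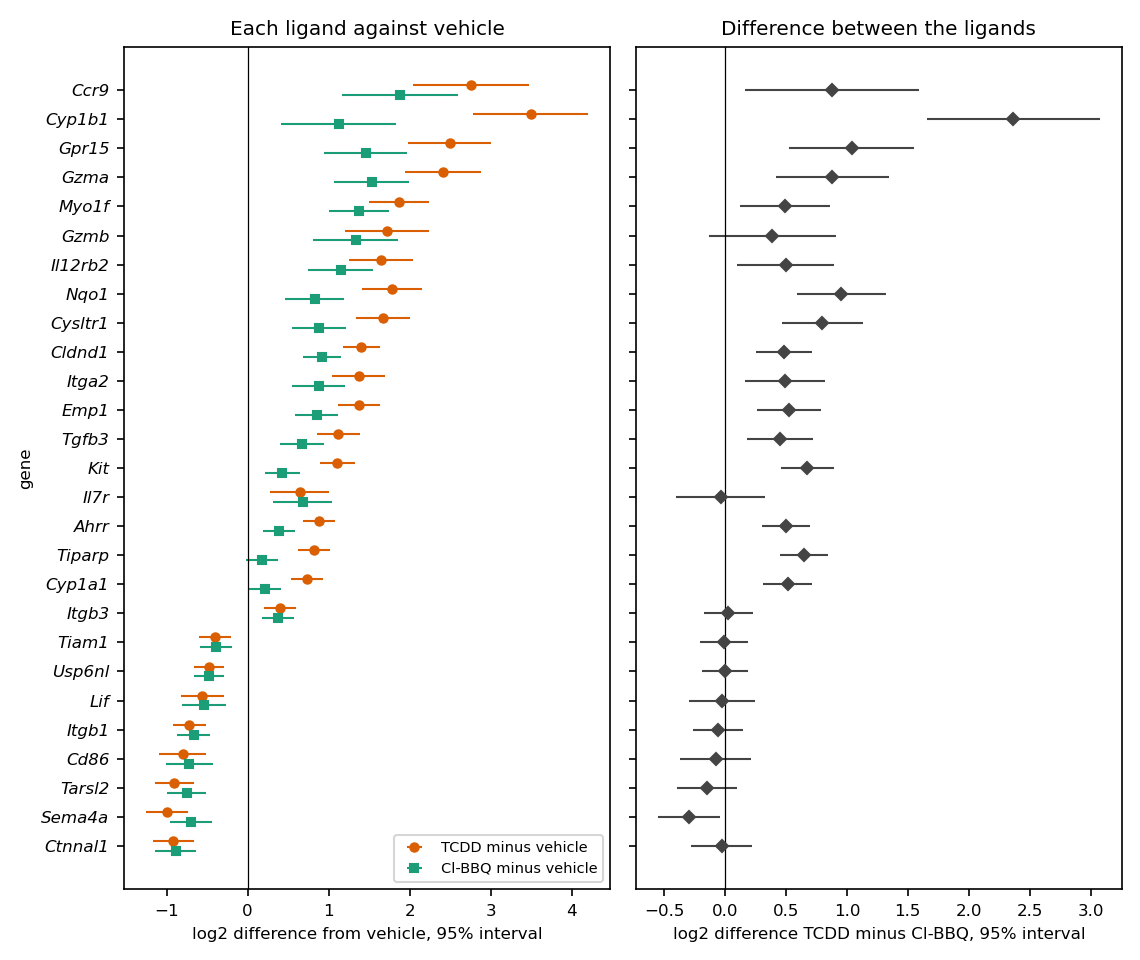
Left, the log2 difference from vehicle of 27 genes for TCDD (orange circles) and Cl-BBQ (green squares); right, TCDD minus Cl-BBQ for the same genes; bars are 95% intervals of the fit, and the left-hand comparisons share the vehicle arrays. The orange points lie right of the green ones for most genes that rose, by 2.37 for Cyp1b1, while the pairs nearly coincide for Itgb1, Ctnnal1, Usp6nl, Tiam1 and Lif.

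Pooling also brought out changes that neither ligand alone carried past the threshold. Against vehicle, which both comparisons share, 247 genes were called with TCDD (1.24%) and 39 with Cl-BBQ (0.196%), and 22 genes of the pooled comparison, 8 higher and 14 lower, were called in neither. The largest were Il7r, Ttc39c, Nrp1, Snord49a, Igfbp4, Itgb3, Hmgn3 and Ptger4, whose changes under TCDD and Cl-BBQ were of like size. Ttc39c read 6.56, 6.48, 6.54 and 7.06 with vehicle and rose 1.56-fold with TCDD and 1.50-fold with Cl-BBQ, overlapping through vehicle replicate 4 and TCDD replicate 1 (pooled adjusted p = 0.0449). The small nucleolar RNA Snord49a fell 1.39-fold and 1.45-fold, and the nucleosome-binding gene Hmgn3 1.34-fold and 1.27-fold. These calls lay close to the threshold: each was lost in at least 3 of the 12 fits without 1 array, Nrp1 in 11, Ptger4 in 9 and Il7r, Ttc39c, Igfbp4 and Hmgn3 in 8.

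Each array was then described on the genes called without it, in units where 0 is the mean of the vehicle arrays and 1 the mean of the ligand groups in that fit. The 4 TCDD arrays had median positions of 0.89, 1.11, 1.34 and 1.27 and the 4 Cl-BBQ arrays 0.65, 0.88, 0.58 and 0.82, while the vehicle arrays lay at 0.17, 0.26, 0.03 and 0.00. All 8 ligand arrays thus lay on the ligand side, with TCDD replicate 1 about as low as Cl-BBQ replicate 2. For the AhR battery members called, TCDD arrays lay at 1.26 to 1.54 and Cl-BBQ arrays at 0.78, 0.77, 0.17 and 0.47, so Cl-BBQ replicate 3 had nearly vehicle levels of the battery but 0.59 for the other called genes. Cl-BBQ replicate 1 was at 0.54 for genes that rose and 1.15 for genes that fell. Vehicle replicate 3 was at -0.16 for genes that rose and 0.51 for genes that fell, the farthest of the vehicle arrays toward the ligands for the genes that fell; vehicle replicate 2 was the farthest for genes that rose, at 0.27. Each left-out ligand array is set against vehicle arrays that helped to choose the genes, so the positions are a description without a test.

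**Figure D5:**
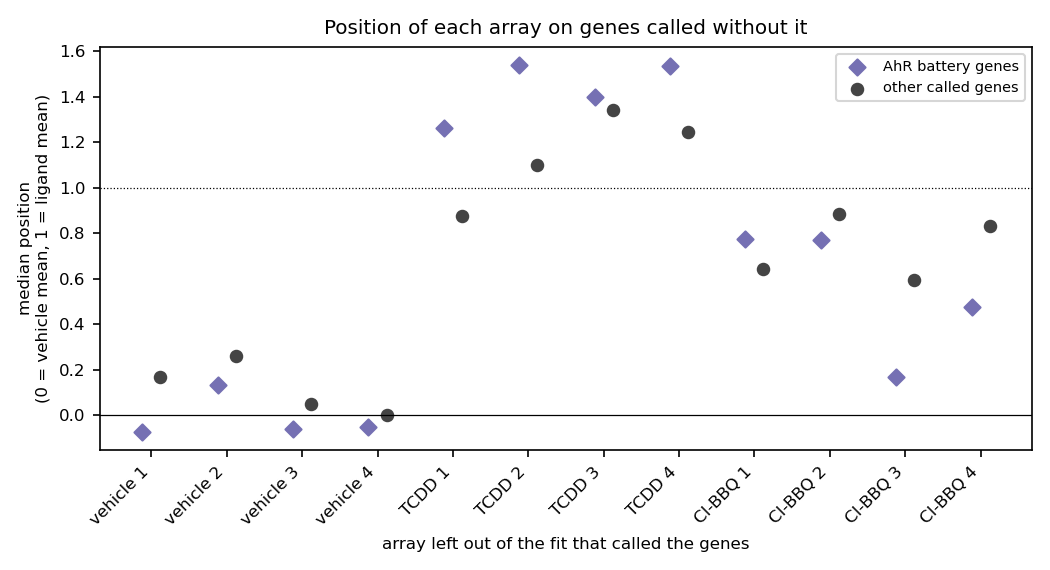
For each array on the x axis, the y axis gives its median position between the vehicle mean (0) and the ligand mean (1) of the fit from which it was left out, for the AhR battery genes called there (diamonds) and the other called genes (circles). TCDD arrays sit near or above 1, Cl-BBQ arrays between 0.17 and 0.88, and vehicle arrays between -0.07 and 0.26.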

How the data were processed

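RNA of 12 sorted CD4+ T cell samples was hybridised to mouse whole-transcript gene arrays; the labels also name a labelling kit made for 3′ arrays, a mismatch not settled here. The deposited values are log2 intensities after RMA by the authors, per the labels and the submitters' processing notes (the log2 scale was read from the values, 2.49 to 14.2); which RMA version, probe library and set of arrays were used is not given in the sources used here. Of 35556 probe sets, 21789 had 1 gene symbol, 1621 several and 12146 none in the platform annotation given; for 999 genes with several probe sets, the one with the highest mean over 12 arrays was kept. Entrez identifiers of 19856 of 19938 genes were found in RefSeq (GRCm38.p6). No dim genes were removed.

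One linear model of the 3 groups was fitted with limma 3.58.1 under R 4.3.3 (9 residual degrees of freedom, empirical Bayes with an intensity trend) with the contrast of the equally weighted TCDD and Cl-BBQ means minus vehicle, and TCDD minus Cl-BBQ; all tests are two-sided, Benjamini-Hochberg adjusted over all genes and called under 0.05, with 95% intervals from the fit. The fit was run on simulated arrays drawn independently of each other. Such data cannot show how it behaves where same-numbered arrays deviate together. No test was made of lists or motifs. For arrays, their number limits the precision, and p-values measure the spread between these samples. The labels give 4 mice per group and do not say whether an array held 1 mouse or a pool.

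The 26 gene lists and 7 marker lists (B and plasma cell, CD4 T cell identity, CD8 T cell, erythroid, NK cell, neutrophil and platelet, myeloid and dendritic cell), the comparison and the alternatives were chosen with earlier results of these data known. Named genes were Cyp1a1, Cyp1b1, Ahrr, Tiparp and Nqo1; the 15 largest increases and 12 largest decreases among called genes without overlap; up to 4 called members per list; the 8 largest changes called in neither single comparison; genes called between ligands; and the 6 called genes with the smallest difference between ligands. Further called list members and uncalled examples were named after their values were seen. In the 10 erythroid and 2 CD8 markers, 4 and 2 were measured and 0 called; of 13 neutrophil and platelet markers 0 were called. List members without a probe set of their own were not analysed here.

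Whether same-numbered arrays pair was checked on deviations from group means: TCDD with Cl-BBQ correlated at 0.606, 0.113, 0.157 and 0.365, all over 0.1, so the blocked value stands beside that comparison; with vehicle, TCDD arrays gave -0.07, 0.14, 0.04 and 0.18 and Cl-BBQ arrays -0.13, 0.09, -0.01 and -0.04. The pooled comparison treats the 8 ligand arrays as independent. If same-numbered TCDD and Cl-BBQ arrays shared an origin, its p-values would be too small, which was not tested. Plots used matplotlib 3.10.9 and Python 3.11.15.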

Additional observations from a re-analysis of the deposited data

Results flagged for a closer look

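In 213 groups of 4 arrays tested over the named genes, 14 had 1 array whose gap to the nearest other exceeded Dixon's 95% limit; chance gives about 1 in 20 such groups. Cl-BBQ replicate 3 stood apart 3 times, low for Cyp1b1 (5.93) and Gzma (8.63) and high for Cd22 (7.77). Cl-BBQ replicate 1 stood apart as low for A530021J07Rik (6.59), Gstp3 (11.1), Dapl1 (10.98) and Il2 (6.79), all of them genes that fell. Cl-BBQ replicate 4 was low for Il10 (8.15). Among TCDD arrays, replicate 1 was low for Cyp1b1 (9.67), and replicate 3 was high for Neb (9.61) and Pdlim4 (9.37) and low for Itgb1 (9.74). Vehicle replicate 4 was high for Il2 (7.68) and Ttc39c (7.06).

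In the main fit, TCDD minus Cl-BBQ was called for Cyp1b1 (log2 2.37), Kit (0.68) and Tiparp (0.65). With no intensity trend or after quantile normalization 0 genes were called, and the ligands differed in dose and dosing days.

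Some probe sets that the gene analysis left out were called. In a fit of every probe set, added after the data were seen, 21 of 12146 probe sets without a symbol were called (0.173%; 12 higher, 9 lower), 20 of them with no overlap between ligand and vehicle arrays, and 3 of 1621 with several symbols were called (0.185%), all lower. In the same fit 134 of 21789 probe sets with 1 symbol were called (0.615%), a higher share.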

How the results depend on the processing

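Under 22 alternatives no named gene changed direction. All 71 named genes were called in the main fit and the alternatives reuse its arrays, so this does not test their directions. The 246 genes called became 143 after centring each array on its median, 395 with the replicate block (which keeps 245 of the 246) and 154 to 319 when 1 array was left out; 216 to 285 were called under the other alternatives. Of the 71 named genes, median centring lost 23 calls and the fit of all ligand arrays as 1 group lost 7. TCDD minus Cl-BBQ gave 3 calls, 0 after quantile normalization or with no intensity trend, 9 with array weights, 5 with the replicate block and 0 to 7 without 1 array; same-numbered TCDD and Cl-BBQ arrays correlated at over 0.1 in every pair, whereas vehicle arrays with ligand arrays did not. Genes without overlap between ligand and vehicle arrays, 332 in all, numbered 357 to 779 without 1 array, since fewer arrays need to separate. In place of the core motif, the longer form TNGCGTG gave 11.4% for genes that rose, 4.84% for genes that fell and 7.38% for all; the 250 bases before the start gave the core in 43.9%, 48.4% and 39.4%. The cause of the other changes was not tested. Quantile normalization and centring moved the median of all genes by 0.0082 and -0.0026. The number of arrays and, for dim genes such as Ahrr and Cyp1a1, low signal limit what could be detected.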

Other observations

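Of the genes called in the pooled comparison, 180 were in no list, and those below were picked after their values were seen. Single genes are given, with no statement on the groups they belong to. Cd7, an immunoglobulin-family receptor of T and NK cells, rose 2.09-fold from 9.01 ± 0.26 to 10.17 ± 0.20 with TCDD and 9.98 ± 0.40 with Cl-BBQ, and Cd55, a complement decay-accelerating factor, 2.05-fold from 9.03 ± 0.17 (adjusted p = 9.33e-05), both without overlap. Lair1, a collagen-binding inhibitory receptor, rose 1.59-fold and L1cam, a neural adhesion molecule, 1.58-fold. The glycosyltransferase genes Gcnt1 and St3gal6 rose 1.72-fold with overlap (adjusted p = 0.0171) and 1.48-fold without (adjusted p = 0.00275). Sytl2, a Rab27 effector of granule release, rose 1.93-fold from 9.03 ± 0.31, and Mlkl, the effector of necroptosis, 1.73-fold from 8.42 ± 0.23 to 9.39 ± 0.13 and 9.04 ± 0.11. Hic1, a transcriptional repressor, rose 1.67-fold, Asb2, a ubiquitin ligase subunit, 1.65-fold, Cpox, a heme synthesis enzyme, 1.71-fold and Cyp2s1, a cytochrome P450, 1.51-fold, all without overlap.

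Among decreases, Cdk6, a cyclin-dependent kinase, fell 1.45-fold from 10.45 ± 0.15 to 9.86 ± 0.07 and 9.98 ± 0.26 without overlap (adjusted p = 0.00569). Of the 27 measured genes of the proliferation list, which does not hold Cdk6, 0 were called. At 1.23% of all genes called, that is near the background for a list of this size. Irf8, a transcription factor of myeloid, B and activated T cells, fell 1.39-fold with overlap (adjusted p = 0.0378), Ly75, the endocytic receptor DEC-205, 1.38-fold and Pdcd1lg2, the PD-1 ligand PD-L2, 1.38-fold.

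The largest difference of any gene that was not called was in Stfa3, a stefin known from granulocytes, 2.71-fold lower at 7.94 ± 0.95 with vehicle, 6.68 ± 0.67 with TCDD and 6.32 ± 0.47 with Cl-BBQ (adjusted p = 0.0508). Cybb, the phagocyte oxidase subunit, was next at -0.89 (8.05 ± 0.60 with vehicle, adjusted p = 0.0711).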
